A study of Mus musculus with 8 samples.

Results

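The Cyp4 genes encode cytochrome P450 enzymes that hydroxylate fatty acids at or next to the terminal, omega carbon. Their values were compared here between kidneys of 28-week-old and 8-week-old NZBWF1 mice. The set comprised 10 genes listed by name (Cyp4a10, Cyp4a12a, Cyp4a12b, Cyp4a14, Cyp4a31, Cyp4a32, Cyp4b1, Cyp4f13, Cyp4f14 and Cyp4v3), of which 9 had a named row among the 22206 rows of the array table. Cyp4v3 was not analysed here. The list was chosen from the Cyp4 family with earlier results of the same age contrast known, so the age differences of its members are given as a description and no test is drawn from them. Each of the 9 genes had 1 row, so no choice between rows was needed.

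Total RNA of whole kidney from 4 mice at 28 weeks (replicates 6 to 9) and 4 mice at 8 weeks (replicates 1 to 4) was measured on Clariom S Mouse arrays of 1 colour, with an array for each mouse. NZBWF1 mice are first-generation crosses of New Zealand Black with New Zealand White mice and spontaneously develop a lupus-like nephritis with age. All animals were of this strain, no treatment is named in the labels, and there was no group of another strain to separate age from disease. The values are on a log2 scale and come from robust multi-array averaging (RMA), and the number of arrays limits their precision. In the text, a mean is given ± SD over 4 arrays of an age, and a log2 difference is 28 weeks minus 8 weeks with its standard error (SE) from limma.

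In the kidney, Cyp4a enzymes turn arachidonic acid into its omega-hydroxylated product, a lipid that acts on the tone of renal vessels and on salt transport in the tubule. In mouse, Cyp4a12a is the main enzyme of this reaction and is induced by androgens, whereas Cyp4a10 and Cyp4a14 are known as targets of the fatty acid receptor PPAR-alpha. Cyp4f enzymes hydroxylate leukotrienes and other long-chain fatty acids, and Cyp4b1 acts on shorter fatty acids and on foreign compounds. The proximal tubule is the main site of Cyp4a expression in the kidney.

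The arrays carried the marker genes of kidney. The phosphate transporter gene Slc34a1 of the proximal tubule had its lowest value over the 8 arrays at 17.45, while array medians lay between 5.98 and 6.14. Of the other marker lists, 5 hepatocyte genes and 4 endothelial genes had mean values of 9.55 to 10.32 and 11.38 to 12.08 at 28 weeks, against 9.35 to 9.90 and 11.38 to 11.50 at 8 weeks, and none of these genes passed the threshold used below. Without 28-week replicate 7, 1 gene of each of these lists passed, as did 1237 of all rows. The labels give no sex. Values of Eif2s3y, Kdm5d and Uty, which are Y-linked, were between 2.58 and 3.66 at 28 weeks and between 2.57 and 3.76 at 8 weeks, where the lowest deposited value was 2.31. At both ages they lay below the array medians, so no array showed clear signal from these Y-linked genes. No array of known sex was there for comparison. In the mean over macrophage markers, 28-week replicate 7 stood apart from the other 28-week arrays. Averaged over 6 measured macrophage markers and set against the 8-week average, replicate 7 stood at 0.07, against 3.78, 2.98 and 2.65 for 28-week replicates 6, 8 and 9, and the 8-week arrays stood between -0.24 and 0.32.

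Within the Cyp4a subfamily the paralogs differed between the ages in opposite directions. Cyp4a12a and Cyp4a12b were higher at 28 weeks, by 3.93-fold and 3.16-fold, while Cyp4a14 and Cyp4a10 were lower, by 2.11-fold and 1.35-fold. For these 4 genes the arrays of the ages did not overlap. Cyp4a31, Cyp4a32, Cyp4b1, Cyp4f13 and Cyp4f14 had overlapping arrays and log2 differences between -0.48 and -0.02. Of all rows, 8.71% did not overlap between the ages, and since the same contrast was used to choose the genes, nothing is read from that comparison.

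Cyp4a12a, the androgen-induced arachidonic acid hydroxylase, had values of 7.08, 7.31, 8.87 and 8.10 in 28-week replicates 6, 7, 8 and 9, against 5.85, 6.06, 5.66 and 5.89 in 8-week replicates 1, 2, 3 and 4. Every 28-week array lay above every 8-week array, with a gap of 1.02 between the lowest at 28 weeks and the highest at 8 weeks. The mean was 7.84 ± 0.81 at 28 weeks and 5.86 ± 0.16 at 8 weeks, a log2 difference of 1.98 (SE 0.34). That 8-week mean lay below the array medians of 5.98 to 6.14. RMA gives no detection call for such low values, so the size of the fold is uncertain. The 28-week mice were more spread out than the 8-week mice, with replicate 8 highest.

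Cyp4a12b, its closest paralog, followed the same direction with a wider spread. Its values were 7.33, 7.73, 9.02 and 9.66 at 28 weeks and 7.0, 7.17, 6.05 and 6.88 at 8 weeks. The gap between the ages was 0.16, and the log2 difference was 1.66 (SE 0.48). Replicates 8 and 9 were the highest 28-week arrays for this gene and for Cyp4a12a, and replicates 6 and 7 were the lowest for both. Because the transcripts of these paralogs are closely alike, their probes may share signal and the separate folds are uncertain. The same holds among Cyp4a10, Cyp4a31 and Cyp4a32.

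Cyp4a14, a PPAR-alpha target that in mouse kidney is known as more abundant in females, had values of 16.28, 16.75, 16.74 and 16.11 in 28-week replicates 6, 7, 8 and 9. At 8 weeks its values were 17.19, 17.61, 17.57 and 17.81 in replicates 1, 2, 3 and 4. Every 28-week array lay below every 8-week array, with a gap of 0.44. The mean was 16.47 ± 0.33 at 28 weeks and 17.55 ± 0.26 at 8 weeks, a log2 difference of -1.07 (SE 0.20).

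Cyp4a10, the other classical PPAR-alpha target of the subfamily, differed less. It had values of 17.10, 17.04, 17.34 and 16.99 at 28 weeks and 17.71, 17.47, 17.52 and 17.49 at 8 weeks. The 28-week arrays were all below the 8-week arrays, by a gap of 0.13, and the log2 difference was -0.43 (SE 0.14). These rows lie in the upper part of the scale, whose highest deposited value was 19.89.

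**Figure D1:**
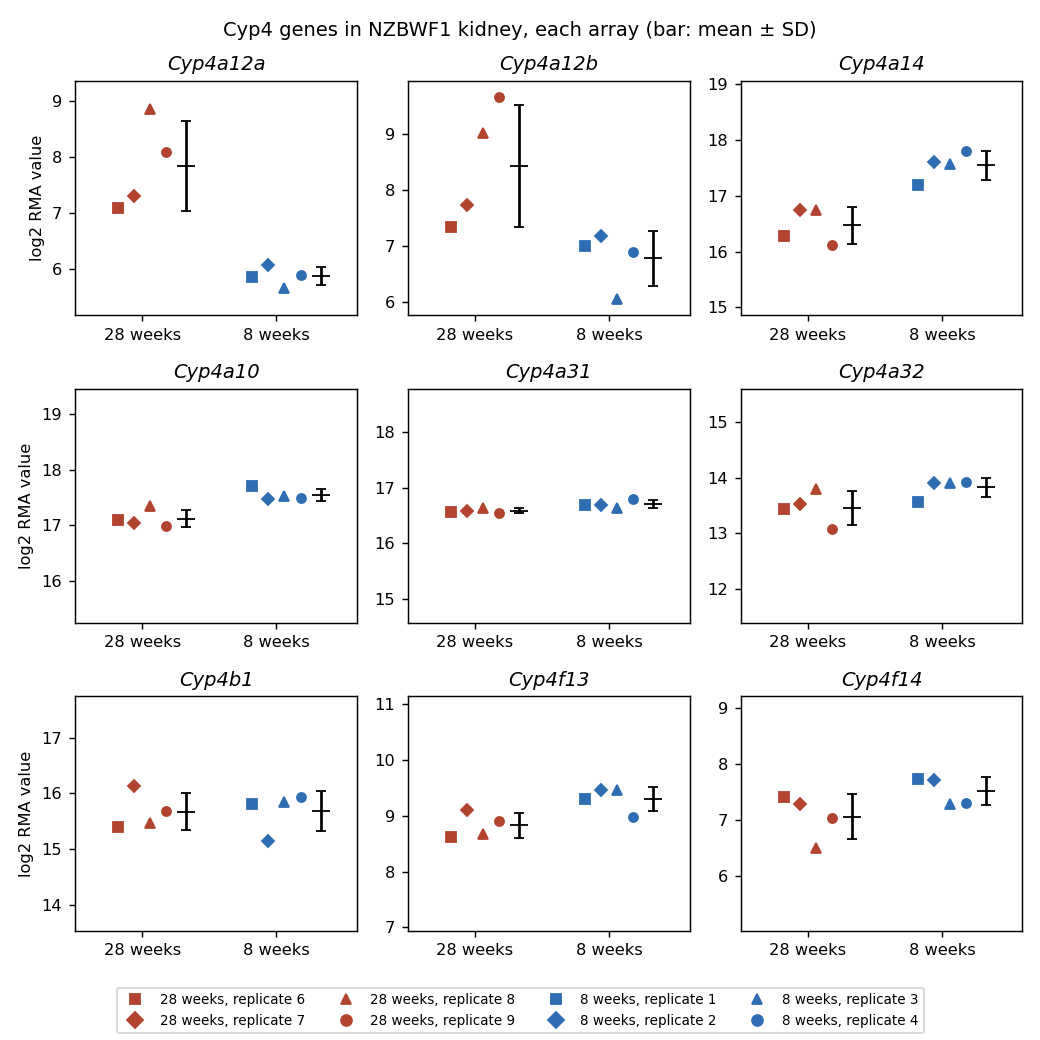
Log2 RMA value of the 9 measured Cyp4 genes in each array (points), 28 weeks left of 8 weeks, with the mean ± SD of 4 arrays beside each group. Every panel spans the same number of log2 units. The 28-week arrays lie above the 8-week arrays for Cyp4a12a and Cyp4a12b and below them for Cyp4a14 and Cyp4a10, and overlap for the other 5 genes.

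Ratios between members within an array, in which a shift in the scale of the whole array cancels, are given as a further description of the same values. Relative to its 8-week mean, the log2 ratio of Cyp4a12a to Cyp4a14 was 2.48, 2.24, 3.81 and 3.67 in 28-week replicates 6, 7, 8 and 9, against -0.24 to 0.34 in the 8-week arrays. The ratio of Cyp4a12a to Cyp4a10, taken the same way, was 1.66 to 3.21 at 28 weeks and -0.18 to 0.27 at 8 weeks. The ratio of Cyp4a14 to Cyp4a31 was -1.29 to -0.69 at 28 weeks and -0.34 to 0.16 at 8 weeks. A ratio within an array shows that the genes differed unequally between the ages and does not say which of them changed.

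The remaining chromosome 4 members differed little. Cyp4a31 had the tightest values of the set, 16.55 to 16.64 at 28 weeks and 16.63 to 16.80 at 8 weeks, with a log2 difference of -0.11 (SE 0.12). Cyp4a32 was 13.43, 13.53, 13.79 and 13.07 at 28 weeks and 13.57, 13.91, 13.90 and 13.92 at 8 weeks. In Cyp4a32, 3 of the 4 28-week arrays lay below all 8-week arrays, and the log2 difference was -0.37 (SE 0.18). Cyp4b1 was 15.39, 16.13, 15.47 and 15.69 at 28 weeks and 15.81, 15.15, 15.84 and 15.94 at 8 weeks, with a log2 difference of -0.02 (SE 0.22). The spread of Cyp4b1 within each age was larger than the difference of its means.

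Cyp4a32 and Cyp4b1 are neighbours on mouse chromosome 4, and their promoter windows are shown because they are the members of the chromosome 4 cluster for which windows were held. RefSeq promoter windows (build GRCm38.p6) were held for 4 of the 9 measured genes, Cyp4a32, Cyp4b1, Cyp4f13 and Cyp4f14, with 7 windows among them. Each window runs 5′ to 3′ on the strand of the gene over 300 bases, and the capitals mark the 50 bases from the annotated transcription start onward. The Cyp4a32 window lies on the plus strand at chr4:115600688-115600987 and the Cyp4b1 window on the minus strand at chr4:115647672-115647971.
Cyp4a32: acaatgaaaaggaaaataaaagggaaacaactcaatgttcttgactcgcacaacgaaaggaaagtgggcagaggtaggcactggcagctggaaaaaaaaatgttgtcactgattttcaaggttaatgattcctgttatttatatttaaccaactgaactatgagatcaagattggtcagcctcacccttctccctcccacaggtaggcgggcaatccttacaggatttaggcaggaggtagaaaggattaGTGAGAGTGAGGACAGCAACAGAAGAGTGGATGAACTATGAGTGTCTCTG
Cyp4b1: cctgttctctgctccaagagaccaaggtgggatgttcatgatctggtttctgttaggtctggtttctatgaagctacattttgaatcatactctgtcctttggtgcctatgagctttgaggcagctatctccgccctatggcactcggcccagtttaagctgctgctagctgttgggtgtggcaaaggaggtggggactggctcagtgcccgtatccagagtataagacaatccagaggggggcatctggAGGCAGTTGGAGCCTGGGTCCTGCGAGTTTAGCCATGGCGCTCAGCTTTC
The windows of Cyp4a32 and Cyp4b1 held 42.7% and 53% G and C, against a median of 52.7% over all 32851 windows in the table.

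Exact matches on both strands were counted for 5 motifs, namely AGGTCA (a nuclear receptor site), AGGTCANAGGTCA (its direct repeat spaced by 1 base, bound by PPAR with RXR), CACGTG (the E-box of the clock activators), TTATGTAA (the D-box of Dbp and its relatives) and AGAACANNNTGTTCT (bound by androgen and glucocorticoid receptors). The direct repeat contains the single AGGTCA. None of the 7 windows of the members held a match to any of them. Several of these windows belong to Cyp4f14 and overlap one another, and none belongs to Cyp4a12a, Cyp4a12b, Cyp4a14 or Cyp4a10. Among all windows, a match was found in 16.3% for AGGTCA, 0.0396% for its direct repeat, 7.15% for the E-box, 0.938% for the D-box and 0.00913% for the palindrome. The absence of these letters from a 300-base window says nothing about binding by the factors.

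The Cyp4f members were both lower on average at 28 weeks, with overlap between the ages. Cyp4f13 was 8.63, 9.10, 8.68 and 8.91 at 28 weeks and 9.31, 9.46, 9.46 and 8.99 at 8 weeks, a log2 difference of -0.48 (SE 0.17). For Cyp4f13 the highest 28-week array, replicate 7, lay above the lowest 8-week array, replicate 4. Cyp4f14, the leukotriene hydroxylase of mouse liver and kidney, was 7.41, 7.28, 6.49 and 7.04 at 28 weeks and 7.74, 7.72, 7.29 and 7.31 at 8 weeks, a log2 difference of -0.46 (SE 0.22). In Cyp4f14, 28-week replicate 8 was the lowest array and replicate 6 lay inside the 8-week range.

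In the fit across all 22206 rows, 2 of the 9 measured members passed an adjusted p of 0.05 from limma with Benjamini-Hochberg adjustment, Cyp4a12a as higher and Cyp4a14 as lower at 28 weeks. Of all rows, 0.968% passed, 0.446% as higher and 0.522% as lower. The members were chosen on this contrast, so their count is not evidence about the family. Leaving out single arrays ended these calls. Without 8-week replicate 1 only Cyp4a14 passed, without 28-week replicate 6 only Cyp4a12a passed, and without 8-week replicate 2, 3 or 4 or 28-week replicate 8 or 9 the count was 0. Without 28-week replicate 7 both passed. The log2 difference over these 8 fits was 1.63 to 2.23 for Cyp4a12a and -1.19 to -0.95 for Cyp4a14.

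The other protein-coding Cyp4 genes of the mouse gave a comparison within the family. All 10 that were not in the list had a named row, none of them passed the threshold, and their median log2 difference was 0.11 (-0.07 with arrays centred on ribosomal protein genes), beside -0.37 for the 9 listed members and -0.01 for all rows. Apart from Cyp4f16, their log2 differences lay between -0.24 for Cyp4x1 and 0.28 for Cyp4f37. Cyp4f16 was 8.63, 7.83, 8.70 and 8.79 at 28 weeks and 7.58, 7.85, 7.31 and 7.99 at 8 weeks. Its log2 difference was 0.81 (SE 0.24, adjusted p = 0.134 in limma), and 28-week replicate 7 lay inside the 8-week range. Without that array Cyp4f16 passed (adjusted p = 0.0129). Cyp4f18, a leukotriene hydroxylase of neutrophils in mouse, had a log2 difference of 0.18 (SE 0.16), which was -0.01 with ribosomal centring. The mean values of Cyp4a29, Cyp4f15, Cyp4f39, Cyp4f40 and Cyp4x1 were at most 4.35 at 28 weeks and at most 4.2 at 8 weeks, and RMA gives no detection call for such low values.

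The order of the genes on the chromosomes, taken from the RefSeq table of GRCm38.p6, placed the higher and the lower paralogs in separate stretches of the chromosome 4 cluster. Among its 10 coding Cyp4 genes the order was Cyp4x1, Cyp4a29, Cyp4a12a, Cyp4a12b, Cyp4a30b, Cyp4a14, Cyp4a10, Cyp4a31, Cyp4a32 and Cyp4b1. The adjacent pair Cyp4a12a and Cyp4a12b had log2 differences of 1.98 and 1.66, and Cyp4a30b next to them had -0.10 (SE 0.18). The run from Cyp4a14 to Cyp4b1 had differences of -1.07, -0.43, -0.11, -0.37 and -0.02. On chromosome 17, where 8 coding Cyp4f genes lie in a row, Cyp4f14 and Cyp4f13 at one end had -0.46 and -0.48, and the 6 others had -0.04 to 0.81. These are positions of 18 genes in 2 clusters, given as a description.

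**Figure D2:**
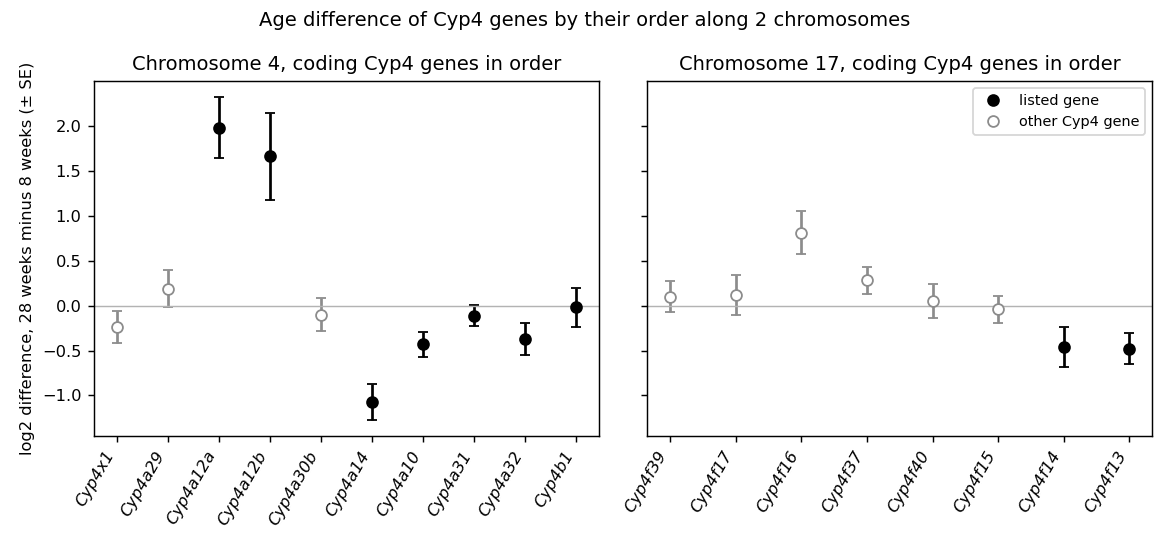
Log2 difference, 28 weeks minus 8 weeks, with its SE (vertical axis) for the coding Cyp4 genes of chromosomes 4 and 17 in their order along the chromosome (horizontal axis, order only and not to scale). Filled points are listed genes and open points are other Cyp4 genes. Cyp4a12a and Cyp4a12b lie at 1.98 and 1.66, and Cyp4a14, the lowest, at -1.07.

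In 28-week replicate 7, the mouse whose mean over macrophage markers was near the 8-week level, Cyp4a12a lay above its 8-week mean. Cyp4a14 and Cyp4a10 lay below theirs. These were the same sides as in the other 28-week mice, which follows from the lack of overlap between the ages for these genes. Nothing is therefore read from the sides. In replicate 7 Cyp4a12a was 1.44 above its 8-week mean, against 1.21 to 3.0 in the other 28-week mice, and Cyp4a14 was 0.80 below it, against 0.81 to 1.44 below. Cyp4a10 was 0.51 below its 8-week mean in replicate 7 and 0.21 to 0.56 below it in the others. The macrophage marker mean in replicate 7 was 0.07 above its 8-week mean. In that mouse Lyz2 (1.28) and Csf1r (0.87) lay above their 8-week means, and Adgre1, Fcgr1, Ptprc and Itgam lay below theirs (-0.5 to -0.32). Csf1r, at 11.05, was above every 8-week array, and Lyz2, at 8.78, was inside the 8-week range. Cyp4f16, outside the list, was 7.83 in replicate 7, inside its 8-week range of 7.31 to 7.99. The part of macrophages in the values of the Cyp4 genes was not tested.

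Markers of the proximal tubule, where Cyp4a genes are known to be expressed, had negative log2 differences. For segments S1 and S2 all 7 markers were negative, with a median of -0.52, and 1 of them, the organic anion transporter gene Slc22a6, passed the threshold (log2 difference -0.91, adjusted p = 0.0313 in limma). Slc22a6 passed in 2 of the 8 fits that left out a single array, those without 8-week replicate 2 or 28-week replicate 7, and had an adjusted p of 0.0637 to 0.123 in the other 6. The count for the S1 and S2 markers was 2 without 28-week replicate 7 and 4 with array weights. Of all rows 1237 and 873 passed in these fits, against 215 in the fit above. All 6 markers of segment S3 had negative differences, with a median of -0.55, and 1 of them passed, the transporter gene Slc22a30 (log2 difference -1.80, adjusted p = 0.000795), which also passed in all 8 of those fits. The mean of the S1 and S2 markers was 15.89 to 16.40 at 28 weeks and 16.50 to 16.68 at 8 weeks, and that of the S3 markers was 11.90 to 12.24 at 28 weeks and 12.70 to 12.93 at 8 weeks. In whole kidney, fewer cells of a type and less RNA per cell cannot be told apart. The part of the tubule cells in the values of Cyp4a14, Cyp4a10, Cyp4a12a and Cyp4a12b was not tested.

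Genes of the circadian clock also differed between the ages, and Cyp4a10 and Cyp4a14 are known to cycle over the day in mouse. Of 15 measured clock and clock-output genes 2 were higher and 5 lower past the threshold, which 0.968% of all rows passed. Their count of 7 was 12 without 28-week replicate 7 and 4 without 28-week replicate 6 or 8-week replicate 1. It was 2 without 28-week replicate 9 or 8-week replicate 2, and 1 without 28-week replicate 8 or 8-week replicate 3 or 4. The count of all rows, 215, changed as well, to 1237 without 28-week replicate 7 and to 25 to 94 without another single array. Dbp, an output factor that binds the D-box, was 10.13, 14.06, 11.05 and 12.14 in 28-week replicates 6, 7, 8 and 9 and 16.27 to 16.61 at 8 weeks. The hour at which kidneys were taken is not in the labels, and the part of the clock in the Cyp4 values was not tested. The clock list holds 5 genes with positive and 10 with negative differences, so its mean partly cancels. That mean relative to 8 weeks was -0.30 in 28-week replicate 7 and -1.05 to -0.94 in the other 28-week mice. Among its genes in replicate 7, Arntl stood at 2 and Dbp at -2.4 against their 8-week means, and Hlf and Per2 at -0.19 and -0.06. Cyp4a14 was -0.80 in replicate 7 and -1.44 to -0.81 in the other 28-week mice.

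**Figure D3:**
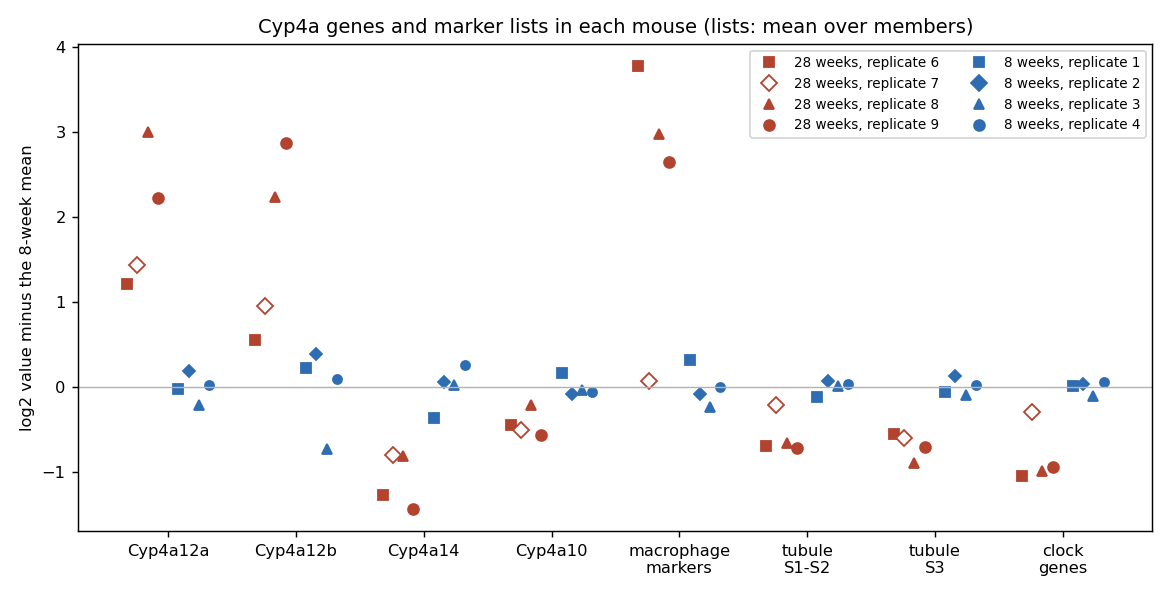
Log2 value minus the 8-week mean (vertical axis) in each mouse for 4 Cyp4a genes and for the mean over the members of 4 marker lists (horizontal axis). Red symbols are 28-week mice and blue symbols 8-week mice, and the open diamond is 28-week replicate 7. That mouse lies at 0.07 for the macrophage marker mean and at 1.44 for Cyp4a12a and -0.80 for Cyp4a14. Its macrophage and clock means average genes above and genes below their 8-week means.

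Genes of the reactions around Cyp4 enzymes showed few differences past the threshold, which 0.968% of all rows passed. Of 3 measured genes of electron donors to P450 enzymes, 1 rose, the cytochrome b5 reductase gene Cyb5r3. Its mean was 15.54 ± 0.14 at 28 weeks against 14.65 ± 0.24 at 8 weeks (1.85-fold, adjusted p = 0.038 in limma). Por, also in that list, had no named row and was not analysed here. Of 9 measured cyclooxygenase and lipoxygenase genes, 1 rose, the prostaglandin synthase gene Ptgs2. Its mean was 6.12 ± 0.28 at 28 weeks against 5.04 ± 0.18 at 8 weeks (2.1-fold, adjusted p = 0.0309 in limma). The 8-week mean of Ptgs2 lay below the array medians of 5.98 to 6.14, so its fold is uncertain. Ptgs1, also in that list, had no named row. The median log2 difference was 0.24 for the electron donors and 0.11 for the cyclooxygenases and lipoxygenases (-0.07 with ribosomal centring and -0.09 without 28-week replicate 9). Ptgs2 was higher in 4 of 4 28-week arrays than in every 8-week array, with 5.81 in replicate 7 as the lowest. Leaving out any single array other than 28-week replicate 7 ended the calls of Cyb5r3 and Ptgs2, with adjusted p of 0.0658 to 0.14 and of 0.0581 to 0.111 over those 7 fits. The Cyb5r3 call also ended with arrays centred on ribosomal protein genes (adjusted p = 0.0535).

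None of 10 genes that release or recycle the fatty acid passed, with a median of -0.06 (0.01 without 28-week replicate 9). The phospholipase gene Pla2g4a, whose enzyme frees arachidonic acid from membranes, had 7.65 ± 0.59 at 28 weeks against 6.52 ± 0.23 at 8 weeks (adjusted p = 0.0839 in limma), and it passed without 28-week replicate 7 (adjusted p = 0.00411) and in 3 of 17 alternatives in all. None of 22 epoxygenase and epoxide hydrolase genes passed, with a median of -0.07, and the Cyp2j9 difference was -0.67 (SE 0.18). Their count was 2 without 28-week replicate 7, where 1237 of all rows passed, and Cyp2j9 passed in 3 of 17 alternatives. None of 7 genes of the response to omega-hydroxyarachidonic acid passed, with a median of 0.04 that turned to between -0.06 and -0.01 in 5 alternatives and to -0.15 with ribosomal centring. In that list Slc12a1, the salt transporter gene of the thick ascending limb, was 16.87 to 17.86 at 28 weeks and 15.93 to 16.80 at 8 weeks, without overlap (log2 difference 0.99, SE 0.25, adjusted p = 0.0916 in limma). Gpr75, which encodes a receptor of this lipid, overlapped between the ages, with a difference of -0.46 (SE 0.22).

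None of the genes that oxidize omega-hydroxylated fatty acids further passed. Of 21 measured genes 16 had a negative difference, with a median of -0.15. Aldh3a2, the fatty aldehyde dehydrogenase that follows the omega-hydroxylation step, was 12.97 to 13.26 at 28 weeks and 13.80 to 14.52 at 8 weeks, without overlap (adjusted p = 0.0587 in limma). Aldh3a2 passed in 6 of 17 alternatives, among them ribosomal centring, the eBayes trend option and the filter on dim rows. Its adjusted p in limma over all 17 was between 0.0236 and 0.185. The count for the list was 2 without 28-week replicate 7, where 1237 of all rows passed. Acaa1a, a peroxisomal thiolase gene, had a log2 difference of -0.63 (SE 0.17) and passed in 3 of 17 alternatives.

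Among 30 measured PPAR-alpha targets outside the Cyp4 family, 22 had a negative and 8 a positive difference. The differences ran from -0.80 to 0.86 with a median of -0.15, and none passed. The 2 genes with the smallest p are named here, and both were lower. The carnitine palmitoyltransferase gene Cpt1a was 12.65 to 13.23 at 28 weeks and 13.52 to 13.78 at 8 weeks (adjusted p = 0.0757 in limma), and the carnitine transporter gene Slc22a5 had a log2 difference of -0.71 (SE 0.16). Slc22a5 passed in 5 of 17 alternatives and Cpt1a in 3. The count for the list was 2 without 28-week replicate 7, 2 with the eBayes trend option or array weights and 3 with ribosomal centring. Of all rows, 1237, 402, 873 and 399 passed in these fits, in that order. None of 7 receptor and cofactor genes passed. Pparg, the receptor best known from fat cells, was 7.15, 5.54, 6.01 and 6.03 in 28-week replicates 6, 7, 8 and 9, against 4.86 to 5.69 at 8 weeks, with a log2 difference of 0.86 (SE 0.32, adjusted p = 0.222 in limma). Ppara itself was 10.16, 11.25, 10.02 and 10.16 in 28-week replicates 6, 7, 8 and 9, against 11.15 to 11.39 at 8 weeks. The log2 difference of Ppara was -0.86, and it passed without 28-week replicate 7 (adjusted p = 0.00193). For Ppara, replicate 7 lay inside the 8-week range and the other 28-week mice below it. For Cyp4a14 and Cyp4a10 all 28-week mice lay below the 8-week range. The part of Ppara in the values of the Cyp4a genes was not tested.

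Genes known for sex bias in mouse kidney are given as 2 lists. Of 14 measured androgen-responsive genes outside the listed members, 1 rose, the hydroxysteroid dehydrogenase gene Akr1c21 (11.07 ± 0.59 at 28 weeks and 9.45 ± 0.33 at 8 weeks, adjusted p = 0.0373 in limma), and the median log2 difference was -0.07 (0.03 without 28-week replicate 6). The androgen-regulated gene Kap was 18.98 to 19.22 at 28 weeks and 19.30 to 19.45 at 8 weeks. Of 8 measured female-biased genes 1 rose, the steroid hydroxylase gene Cyp2a4 (2.23-fold, adjusted p = 0.0192 in limma), and the median was 0.13 (-0.05 with ribosomal centring). Against the 0.968% of all rows that passed, these lists are short and their counts are given only as a description. Leaving out any single array other than 28-week replicate 7 ended the Akr1c21 call (adjusted p 0.0566 to 0.119), and leaving out 28-week replicate 8 or 9 or 8-week replicate 3 or 4 ended that of Cyp2a4 (0.0526 to 0.0814).

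**Figure D4:**
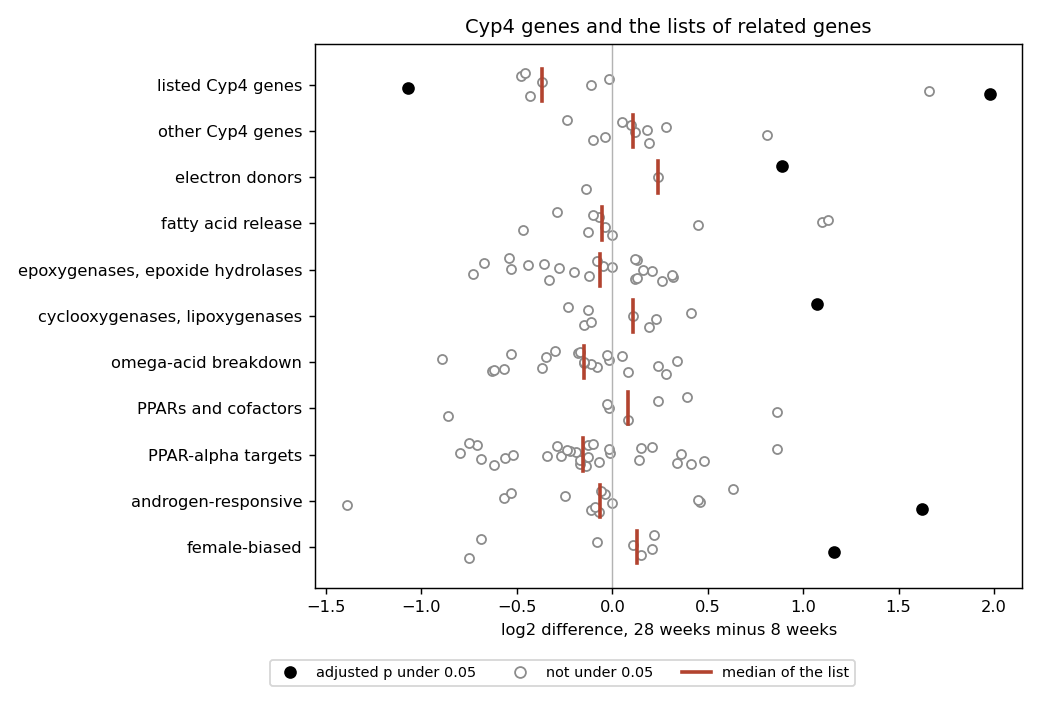
Log2 difference, 28 weeks minus 8 weeks (horizontal axis), of each measured gene of the listed Cyp4 genes, the other Cyp4 genes and 9 lists of related genes (vertical axis). Filled points passed an adjusted p of 0.05 over all rows, open points did not, and the red bar is the median of the list. The listed Cyp4 genes ranged from -1.07 to 1.98 and the androgen-responsive genes from -1.39 to 1.62. The listed Cyp4 genes were chosen with this contrast known, so nothing is read from the width of their range.

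The variation between mice of the same age was set apart by taking each array's deviation from the mean of its age. Over the 8 arrays, 9698 other genes with a mean above that of the median row were ranked by their Pearson r with Cyp4a12a. The highest r was 0.976 for Cfi, the gene of complement factor I, followed by Rbm3, Ipo5, the complement gene C4b and Rab29, with r down to 0.93. Cyp4a12b had an r of 0.791 and rank 104, and Cyp4a14 an r of 0.193. For Cyp4a14 the highest r was 0.977 for the ribosomal protein gene Rpl35a, followed by Csl, the peroxisomal reductase gene Decr2, Nmt1 and Ugp2, with r down to 0.941. Cyp4a32 had an r of 0.883 with Cyp4a14 and rank 31, while Cyp4a10, which was lower at 28 weeks as well, had an r of 0.0377. The SD of Cyp4a12a was 0.81 at 28 weeks and 0.16 at 8 weeks, so its r values rest mostly on the 28-week arrays. The highest values were picked from 9698 genes. All r values share 8 arrays and are a description of likeness with no test.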

How the data were processed

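Groups and replicate numbers were taken from the sample titles. The deposited values are log2 values that the authors made with RMA, per the submitters' processing notes, which give neither version nor settings. Base 2 was assumed, since RMA writes that scale and the values span 2.31 to 19.89. RMA compresses folds, most at low and very high values.

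All 22206 rows were fitted by limma 3.58.1 in R 4.3.3 (lmFit, then eBayes), 28 weeks minus 8 weeks, with Benjamini-Hochberg adjustment over all rows and a threshold of 0.05. The platform annotation gave 1 symbol to 19572 rows and none to 2634. No arrays were duplicates, and batches were not examined, because the labels name none.

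The members and the 19 gene lists were chosen with earlier results of these data known. Of 216 listed genes 194 had a named row, and the others were not analysed here. Named genes were the Cyp4 genes, list members past the threshold (at most 4, or the 2 with the smallest p) and the 5 genes most like Cyp4a12a and Cyp4a14. Kap and the Y-linked genes were also named, after their values were seen. The planned comparison of protein sequences was not made. The code was tested on simulated data. Figures were drawn with matplotlib 3.10.9 under Python 3.11.15. Alternatives were 4 normalizations, a filter that left out the dimmest 33.3% of rows, 2 settings of eBayes, array weights, each array left out in turn, and 2 arrays left out together. Cyclic loess was added after seeing the data.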

Additional observations from a re-analysis of the deposited data

Results flagged for a closer look

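Among the values of 58 named genes, examined in 116 groups of 4 arrays, 6 groups held an array whose gap to the nearest other array, divided by the range of the group, passed Dixon's critical value for 4 samples. Chance passes it in about 1 in 20 groups. In the 28-week group, replicate 7 stood apart in Cyp4f16, at 7.83 against 8.63 to 8.79 in the other 28-week arrays, and in Ppara, at 11.25 against 10.02 to 10.16. In the 8-week group, replicate 1 stood apart in Cyp4a32, at 13.57 against 13.90 to 13.92, in Cyp4f40, at 3.81 against 3.18 to 3.28, and in Slc34a1, at 18.57 against 18.08 to 18.11. For Cyp4b1, 8-week replicate 2 was at 15.15, against 15.81 to 15.94 in the other 8-week arrays.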

How the results depend on the processing

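The count of members past the threshold was 2 under all 9 alternatives that did not leave out a single array, and 0 to 2 when single arrays were left out. The count of rows called was 215. It was 399 with arrays centred on ribosomal protein genes, which moved the median of all rows to -0.19 and put 78 higher and 321 lower, 402 with the trend option of eBayes, 873 with array weights, and 1384 with 8-week replicate 1 and 28-week replicate 7 left out together. Leaving out single arrays gave 25 to 1237. Of the calls 46% were higher, against 19.5% with ribosomal centring, 37.3% with arrays centred on medians, 60.1% with array weights, 16.7% to 65.1% when single arrays were left out (lowest without 8-week replicate 3, highest without 28-week replicate 7) and 67.2% with both arrays left out. Over 17 alternatives the log2 difference of Cyp4a12a was 1.63 to 2.23, of Cyp4a12b 1.25 to 2.03, of Cyp4a14 -1.29 to -0.95 and of Cyp4a10 -0.61 to -0.35. Of 153 values of the 9 members 150 moved by less than 1 SD between replicates, and the others were Cyp4a31 at -0.17 with median centring, and Cyp4a31 at -0.29 and Cyp4a10 at -0.61 with ribosomal centring. The difference of Cyp4b1, -0.02, ranged from -0.20 to 0.08 and was above 0 in 6 alternatives. Small differences changed sign in other Cyp4 genes: with ribosomal centring in Cyp4f17 (-0.06), Cyp4f18 (-0.01), Cyp4f39 (-0.09) and Cyp4f40 (-0.13), and elsewhere at most to 0.05 in Cyp4f15, -0.04 in Cyp4a29 and Cyp4f17, -0.10 in Cyp4f39 and -0.01 in Cyp4f40. The sign turned also for Nmt1 with ribosomal centring (-0.09, against 0.09) and for Csl without 8-week replicate 2 (0.03) or 4 (0.02) or 28-week replicate 6 (0.01) or 9 (0.09), against -0.04, with -0.18 to 0.09 over all 8 single-array omissions. The cause was not tested. No paired analysis was possible because the ages share no replicate number.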
